A study of Mus musculus with 9 samples.

Results

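The 36 genes described here encode the machinery that carries nuclear-encoded proteins into mitochondria, read in SIX2 nephron progenitors with and without the complex III subunit QPC. They were taken from a table of 26858 mouse genes as every protein-coding gene whose symbol begins with Timm or Tomm and a number, with *Timmdc1*, *Samm50*, *Pam16*, *Mtx1*, *Mtx2*, *Mtx3*, *Dnajc15*, *Dnajc19*, *Grpel1*, *Grpel2*, *Pmpca* and *Pmpcb*. The rule used symbols and gene type only, though it was written with earlier results of these data known. RNA came from eGFP+ cells sorted from kidneys at age E18.5, from 4 *Six2-Qpc+/-* controls (libraries 71, 72, 73 and 76) and 5 *Six2-Qpc-/-* mutants (libraries 74, 75, 77, 78 and 79). Both genotypes carried the bacterial artificial chromosome transgene in which the *Six2* promoter drives eGFP fused to Cre recombinase, which recombines a floxed *Uqcrq* (*Qpc*) allele in cap mesenchyme. Controls were therefore not wild type: they expressed the same Cre and were to lose 1 *Qpc* allele in these cells, and mutants both. The paper states that the sort may have taken in differentiating *Qpc+/-* cells with weak eGFP, and names only the control genotype for this. It also reports a lower percentage of eGFP+ cells in mutant than in control kidneys at this age. The part of such cells in the differences between genotypes was not tested. The labels do not say whether a library came from 1 embryo or from pooled embryos, nor give litter or sex, so p-values measure the spread between these libraries.

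Nearly all mitochondrial proteins are made in the cytosol. They enter through the TOM complex of the outer membrane, in which receptors hand the precursor to a channel, and are then sorted: the SAM complex inserts barrel-shaped outer membrane proteins, small TIM chaperones carry hydrophobic proteins across the intermembrane space to the TIM22 complex, and the TIM23 complex with its ATP-driven motor moves presequence proteins into the matrix, where a peptidase removes the presequence. Import through TIM23 and TIM22 uses the membrane potential that the respiratory chain, complex III included, maintains. Nephron progenitors of the cap mesenchyme either renew or turn into the epithelium of the nephron.

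The stretches of 250 bases upstream of the transcription start are shown for the genes past the threshold whose promoter was in the RefSeq promoter table (build GRCm38.p6), *Tomm20* (chr8:126945922-126946171, minus strand), *Tomm70a* (chr16:57121464-57121713, plus strand), *Timm10* (chr2:84826771-84827020, plus strand) and *Samm50* (chr15:84191990-84192239, plus strand), and for *Timm13* (chr10:80900970-80901219, minus strand), the 1 gene that held a searched motif. Each is written 5′ to 3′ on the strand of its gene, and capitals mark the motif.
Tomm20: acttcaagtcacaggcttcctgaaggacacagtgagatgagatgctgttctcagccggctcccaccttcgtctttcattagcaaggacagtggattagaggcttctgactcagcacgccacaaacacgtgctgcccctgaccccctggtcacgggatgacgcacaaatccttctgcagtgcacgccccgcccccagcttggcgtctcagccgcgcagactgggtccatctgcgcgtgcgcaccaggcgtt
Tomm70a: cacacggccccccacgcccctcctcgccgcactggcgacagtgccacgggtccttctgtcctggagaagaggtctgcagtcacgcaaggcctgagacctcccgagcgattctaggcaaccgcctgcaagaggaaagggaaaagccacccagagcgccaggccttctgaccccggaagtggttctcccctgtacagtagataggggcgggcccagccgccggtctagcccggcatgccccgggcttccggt
Timm10: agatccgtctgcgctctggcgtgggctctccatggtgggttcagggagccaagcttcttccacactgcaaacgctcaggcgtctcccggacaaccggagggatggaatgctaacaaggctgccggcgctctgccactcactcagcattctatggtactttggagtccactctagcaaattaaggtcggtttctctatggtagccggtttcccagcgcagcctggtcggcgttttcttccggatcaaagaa
Samm50: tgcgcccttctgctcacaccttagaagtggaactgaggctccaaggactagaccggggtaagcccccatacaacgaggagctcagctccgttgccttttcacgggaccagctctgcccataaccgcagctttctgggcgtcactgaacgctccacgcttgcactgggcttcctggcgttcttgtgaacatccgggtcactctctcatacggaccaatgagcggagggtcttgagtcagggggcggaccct
Timm13: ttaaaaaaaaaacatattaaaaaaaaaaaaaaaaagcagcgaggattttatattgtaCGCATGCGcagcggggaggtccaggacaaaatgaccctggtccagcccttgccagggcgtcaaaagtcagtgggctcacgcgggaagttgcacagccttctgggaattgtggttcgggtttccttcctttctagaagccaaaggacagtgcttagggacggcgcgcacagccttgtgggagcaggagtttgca
Promoters (250 bases before to 50 after the start) were found for 32 of the 36 genes, 34 promoters in all. Both strands were searched for TGATGNAA, the core of the amino acid response element bound by ATF4. They were also searched for CGCATGCG, 1 exact spelling of the core of the site of NRF1, a factor known for nuclear genes of mitochondrial proteins. Other spellings of the NRF1 site were not searched. No promoter of an import gene held both, so the motifs overlapped in none. TGATGNAA was in 0 of the 34 promoters and in 3.97% of all 32851 promoters in the table. *Grpel2*, *Timm21*, *Tomm7* and *Tomm40l* had no promoter there and were not searched. CGCATGCG, which reads the same on both strands, was in 1 (2.94%), that of *Timm13*, with its first base at position -193 from the start, and in 1.87% of all promoters. A match is only these letters in this window, and so is the lack of one.

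Library totals ranged from 21040536 to 23986458 counted reads. *Uqcrq*, the targeted gene, was at 76.8 to 107 CPM (reads per 1000000 of the normalized library size) in controls and at 16.5 to 28.2 CPM in mutants, with a log2 fold change, mutant over control, of -2.14 ± 0.16 (SE; adjusted p = 2.1e-05), so every library matched its label. The progenitor markers *Six2*, *Cited1*, *Eya1*, *Osr1*, *Itga8*, *Meox1* and *Crym* summed to 1995 to 2463 CPM in controls and 1952 to 2417 CPM in mutants, and 0 of the 7 passed the threshold in edgeR (2 had an unadjusted p under 0.05; DESeq2 called 0 and limma-voom 1). Many import genes shared 1 order of the libraries within each genotype. In 20 of 33 import genes tested (60.6%), controls 72 and 73 were both below controls 71 and 76, and mutants 74 and 79 were both below mutants 75, 77 and 78, an arrangement seen in 12.4% of all genes tested. The arrangement was not planned but taken from these libraries, so its share among the import genes is a description and not a test. Y-linked genes were read at 263, 328 and 318 CPM in control 72, control 73 and mutant 79 and at no more than 0.177 CPM in the other 6 libraries, and the share of such libraries was 2 of 4 controls and 1 of 5 mutants. The part of sex or of any batch in the arrangement was not tested.

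The import genes were well expressed. Of the 36, 33 had enough reads to be tested, and in these the lowest count in any library was 90 reads (*Tomm40l*). On the RPKM scale (CPM per kilobase of gene, so that genes of different length can be set side by side), control levels ran from 1.54 ± 0.106 (SD, n = 4) for *Mtx3*, a metaxin of the outer membrane, to 153 ± 33.3 for the receptor *Tomm22*. Next to *Tomm22* came the small TIM chaperones *Timm13* at 151 ± 22.2 RPKM and *Timm8b* at 144 ± 23.4 RPKM, which differed from it and from each other by less than 1 SD. At the lower end, *Tomm40l* at 2.58 ± 0.341 RPKM and *Timm10b* at 3.05 ± 0.086 RPKM lay far below their relatives *Tomm40* at 46.0 ± 4.34 RPKM and *Timm10* at 57.9 ± 9.24 RPKM. The 3 genes not tested were *Tomm20l*, with 0 to 3 reads in a library, *Timm8a2*, with 0 to 1, and *Tomm6*, with 0 to 2. The first 2 are paralogs of *Tomm20* and *Timm8a1*. *Tomm6* is a small TOM subunit whose model shares 1648 bases on the same strand with that of *Gm21981*, which had a mean of 1.0 reads. How reads in the shared bases were counted is not known, so the count of *Tomm6* cannot be read as its level.

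In the mutants 4 import genes rose and 1 fell. *Grpel2*, *Tomm20*, *Timm10* and *Tomm70a* were higher, by 1.76, 1.65, 1.57 and 1.29 fold, and *Samm50* was at 0.724 of the control level, all past an adjusted p of 0.05 in edgeR. These 5 of 33 (15.2%) compare with 14.8% of all 14990 genes tested, so the share of import genes that changed was close to that of any gene. By direction, the 4 that rose (12.1%) stand beside 7.82% of all genes and the 1 that fell (3.03%) beside 7.02%. Of the 14990 genes, 4709 had an unadjusted p under 0.05, DESeq2 called 3100 and limma-voom 4868, beside 10, 8 and 16 of the 33. The counts given for roles and marker lists stand beside these. Single roles held 1 to 7 tested genes, so 1 call moves their shares far. Fitted changes ran from -0.47 to 0.82 on the log2 scale with a median of 0.18 (21 above 0, 12 below), where the median of all genes tested was -0.01. With 1 surrogate variable, a covariate estimated from the counts, the import median was 0.00. Genotypes did not overlap in 4 import genes (12.1%), 3 higher and 1 lower, beside 15.2% of all genes. The count of 5 depended on single libraries: it was 3 without control 71, 2 without control 72, 1 without control 73, 9 without mutant 74, and 2 without mutant 75, 77 or 78.

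**Figure D1:**
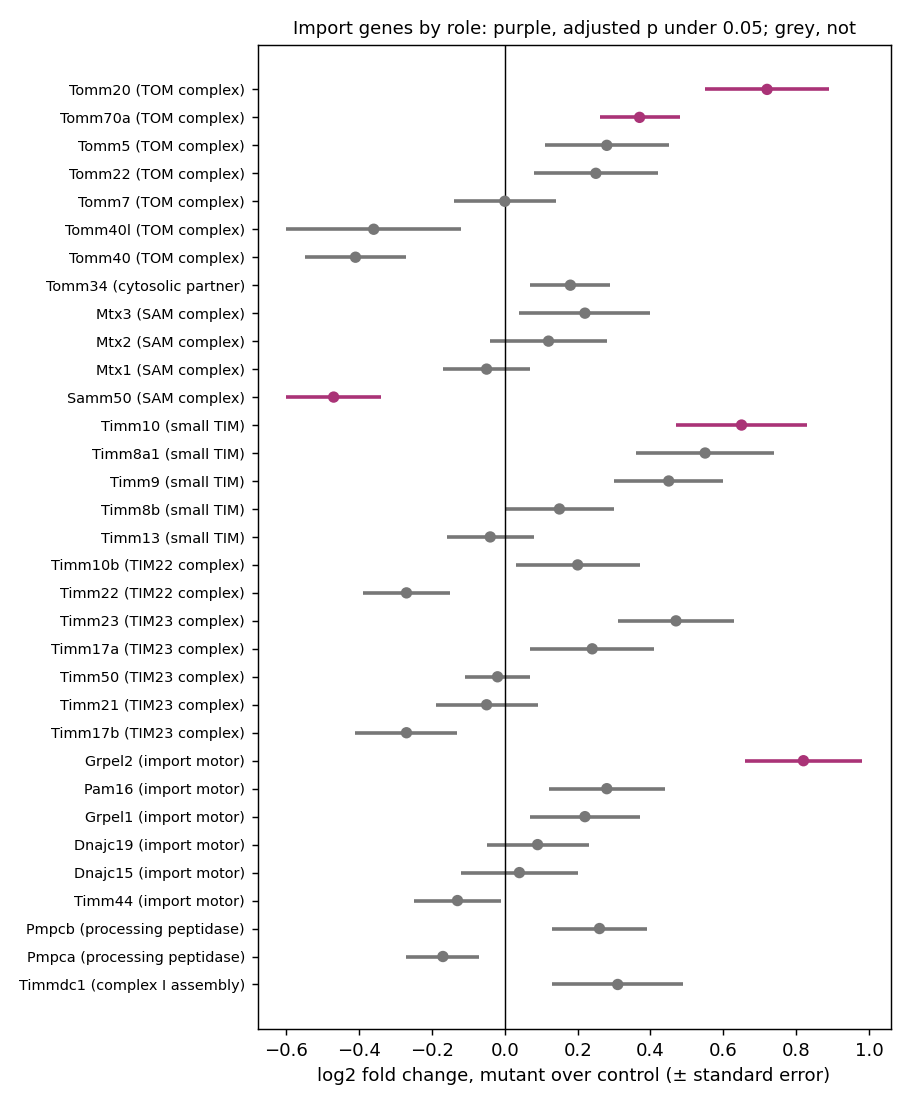
Log2 fold change, mutant over control, of the 33 import genes tested, ordered by role, with bars of ± 1 standard error. Genes past the threshold are purple: Tomm20, Tomm70a, Timm10 and Grpel2 to the right of 0 and Samm50 to the left, with values from -0.47 to 0.82, while each role also holds genes in grey.

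Among the 7 TOM genes tested, the 2 that rose (28.6%, beside 7.82% of all genes tested) were receptors. *Tomm20* (chr8:126930664-126945921, mm10) encodes the receptor that binds presequences on the cytosolic side of the outer membrane. It was read at 215, 162, 188 and 229 CPM in controls 71, 72, 73 and 76, and at 231, 380, 376, 385 and 267 CPM in mutants 74, 75, 77, 78 and 79. The genotypes did not overlap, but the gap was narrow: mutant 74 lay just above control 76, and mutants 75, 77 and 78 were far above both. Its log2 fold change was 0.72 ± 0.17 (SE, adjusted p = 0.0145; 2-sided exact permutation p = 0.0159). It kept its call in 16 of 17 alternative analyses, and without control 73 it was 0.70 with an adjusted p of 0.0515. With 1 surrogate variable it was 0.46 (adjusted p = 0.00219). Of 4 processed copies of *Tomm20* elsewhere in the genome, the 2 in the table held together at most 1.49% as many reads as the gene.

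*Tomm70a* (chr16:57121714-57154530), the receptor for carrier proteins that arrive with cytosolic chaperones, was at 81.4, 93.4, 96.3 and 113 CPM in the controls in the same order and at 118, 134, 124, 121 and 123 CPM in the mutants. All mutants lay above all controls and close to each other. Its log2 fold change of 0.37 ± 0.11 (adjusted p = 0.0422; 2-sided exact permutation p = 0.00794, the smallest that 4 against 5 libraries can give) was the smallest of the 5 called. The call was held in 7 of 17 alternatives. It was lost without control 71, 72 or 73 or mutant 75, 77, 78 or 79 (adjusted p 0.0652 to 0.108, log2 fold change 0.30 to 0.38), under upper-quartile scaling (0.0539), with no filter (0.0835) and with Y-linked expression as a covariate (0.0571).

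*Tomm22*, the central receptor that joins *Tomm20* to the channel, was at 178, 118, 141 and 193 CPM in controls and 145, 212, 210, 220 and 148 CPM in mutants. The genotypes overlapped, since mutants 74 and 79 were within the control range, and the log2 fold change of 0.25 ± 0.17 did not pass (adjusted p = 0.355). *Tomm40*, the channel itself, leaned the other way, at 122, 142, 131 and 114 CPM in controls and 126, 78.3, 85.7, 90.6 and 99 CPM in mutants. Mutant 74 alone was within the control range. The log2 fold change of *Tomm40* was -0.41 ± 0.14, short of the threshold (adjusted p = 0.0663), and without mutant 74 it was -0.52 with an adjusted p of 0.009 and with 1 surrogate variable -0.25 (adjusted p = 0.0708). The channel paralog *Tomm40l* (-0.36 ± 0.24) and the small subunits *Tomm5* (0.28 ± 0.17) and *Tomm7* (0.00 ± 0.14), which help assemble the complex, did not pass in edgeR either. Of the 7 TOM genes tested, DESeq2 called 2 and limma-voom 5. Those of limma-voom included *Tomm5* (0.44, adjusted p = 0.038), *Tomm22* (0.42, adjusted p = 0.0436) and *Tomm40* (-0.50, adjusted p = 0.00487). With 1 surrogate variable *Tomm5* was 0.04 and *Tomm22* 0.00.

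**Figure D2:**
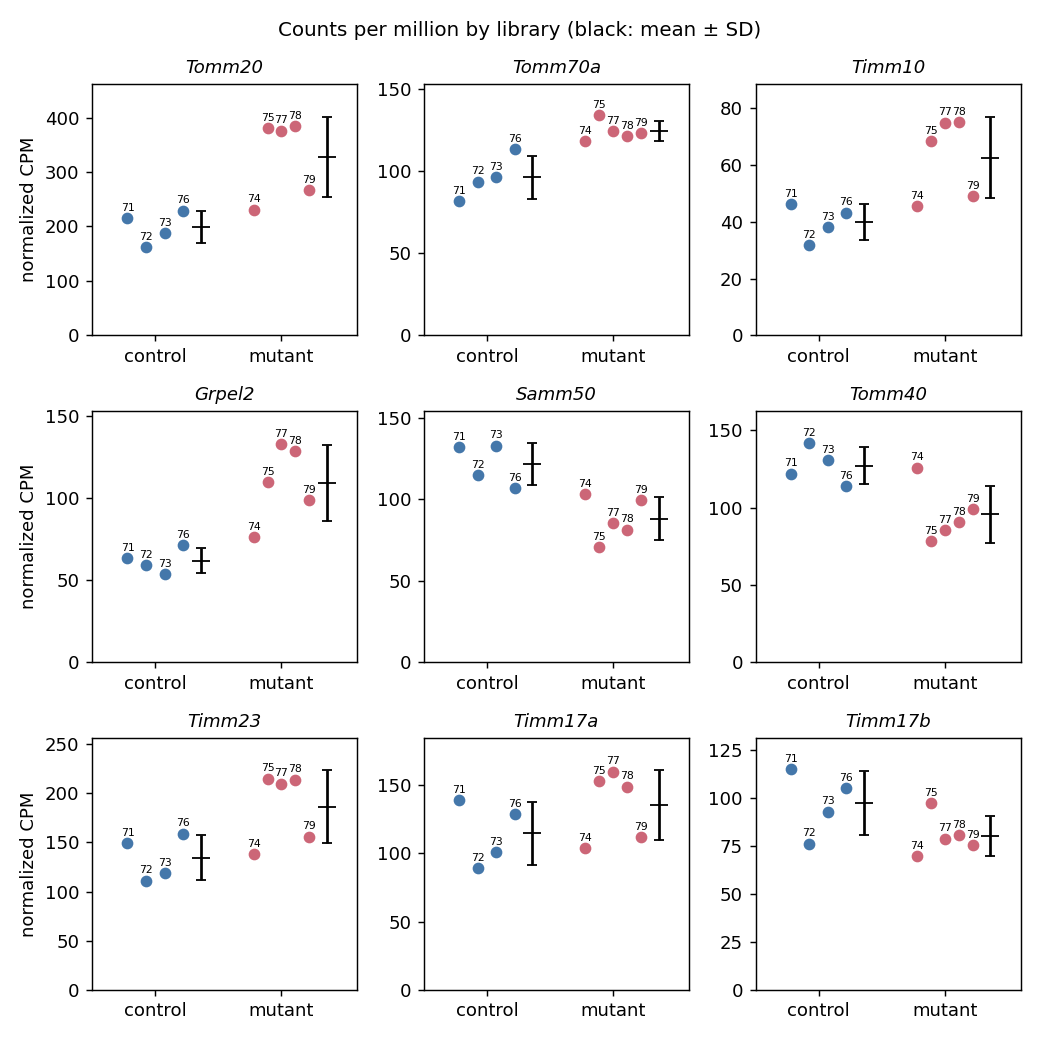
Normalized CPM of 9 import genes in each library (points, numbered by library), with the mean ± SD of each genotype in black; vertical axes are linear and start at 0. Tomm20, Tomm70a, Grpel2 and Samm50 show no overlap between genotypes, and in Tomm20, Timm10 and Timm23 mutants 74 and 79 sit below mutants 75, 77 and 78.

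Of the 4 SAM genes, *Samm50* fell (25%, beside 7.02% of all genes tested). It encodes the core barrel of the SAM complex, which inserts *Tomm40* and other barrel proteins and also anchors the inner membrane's cristae contacts (chr15:84192233-84214303). Controls 71, 72, 73 and 76 were at 132, 115, 133 and 107 CPM and mutants 74, 75, 77, 78 and 79 at 103, 70.9, 85.3, 81.5 and 99.7 CPM. No mutant reached the lowest control, although mutants 74 and 79 came within a few CPM of control 76. That is a log2 fold change of -0.47 ± 0.13 (adjusted p = 0.0302; 2-sided exact permutation p = 0.0159). It passed in 11 of 17 alternatives and was lost without control 71, 72 or 73 or mutant 75, 77 or 78, with log2 fold changes of -0.49 to -0.40 and adjusted p of 0.051 to 0.101. *Samm50* was 72.7 ± 7.66 RPKM in controls, near *Mtx1* at 70.6 ± 9.9 and *Mtx2* at 64.2 ± 11.8, its metaxin partners. The metaxins gave log2 fold changes of -0.05 ± 0.12 (*Mtx1*), 0.12 ± 0.16 (*Mtx2*) and 0.22 ± 0.18 (*Mtx3*), none past the threshold. *Mtx1* overlaps *Thbs3* on the other strand over 11658 bases, and these libraries did not keep the strand.

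The small TIM chaperones hold hydrophobic precursors in the intermembrane space. They had the highest median of any role with more than 1 gene, 0.45. Of 5 tested, 1 rose (20%, beside 7.82% of all genes tested). *Timm10* (chr2:84826997-84830213), which forms a ring with *Timm9*, was at 46.4, 31.9, 38.1 and 43.3 CPM in controls and at 45.6, 68.5, 75, 75.2 and 49 CPM in mutants. Mutant 74 fell below control 71, so the genotypes overlapped, while mutants 75, 77 and 78 were well above all controls. The log2 fold change was 0.65 ± 0.18 (adjusted p = 0.0284; 2-sided exact permutation p = 0.0397). It was called in 12 of 17 alternatives, and lost without control 72 or 73 or mutant 75, 77 or 78 (log2 fold change 0.55 to 0.63, adjusted p 0.0568 to 0.0851). With 1 surrogate variable it was 0.38 (adjusted p = 0.0279). Its partner *Timm9* had a log2 fold change of 0.45 ± 0.15 (adjusted p = 0.0536), and *Timm8a1*, the mouse counterpart of the gene of human deafness-dystonia syndrome, one of 0.55 ± 0.19 (adjusted p = 0.0706). Both passed without mutant 74, *Timm9* at 0.52 (adjusted p = 0.0223) and *Timm8a1* at 0.67 (adjusted p = 0.015), and both passed in DESeq2. With 1 surrogate variable they were 0.30 (adjusted p = 0.102) and 0.28 (adjusted p = 0.191). *Timm8b* (0.15 ± 0.15) and *Timm13* (-0.04 ± 0.12), which pairs with Timm8 proteins, did not pass. With 1 surrogate variable *Timm8b* was 0.00 and *Timm13* -0.13. *Timm8a1* lies on the X chromosome, and a near-identical copy, *Gm9797*, held 2.55% to 6.9% as many reads.

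*Timm22*, the channel through which carrier proteins enter the inner membrane, was at 104, 76.3, 88.8 and 99.2 CPM in controls and 77, 86.6, 71.4, 77.8 and 68.6 CPM in mutants. Control 72 was within the mutant range. Its log2 fold change was -0.27 ± 0.12 (adjusted p = 0.14), and -0.35 with 1 surrogate variable (adjusted p = 0.0409). *Timm10b*, the small TIM bound to that channel, gave 0.20 ± 0.17 from 181 to 293 reads a library, with *Dnhd1* on the same strand and *Arfip2* on the other overlapping its model. Of the 2 TIM22 genes, 0 passed in edgeR, DESeq2 or limma-voom, and 1 had an unadjusted p under 0.05; *Timm22* passed with 1 surrogate variable.

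The TIM23 complex, the gate for presequence proteins, had 0 of 5 genes past the threshold in edgeR (1 with an unadjusted p under 0.05; DESeq2 called 1 and limma-voom 2), with a median of -0.02. Its channel *Timm23* was at 149, 111, 119 and 159 CPM in controls and 138, 215, 210, 214 and 156 CPM in mutants. Mutants 75, 77 and 78 were above every control, and mutants 74 and 79 were not. The log2 fold change was 0.47 ± 0.16 (adjusted p = 0.0649); it was 0.56 without mutant 74 (adjusted p = 0.0166), 0.57 without control 76 (adjusted p = 0.0493) and 0.49 in DESeq2 (adjusted p = 0.0383). With 1 surrogate variable it was 0.23 (adjusted p = 0.0479) and with the Y-linked covariate 0.38 (adjusted p = 0.0908), and over all 17 alternatives it ran from 0.23 to 0.64. Near-identical copies match 95.6% of the *Timm23* transcript, and those in the table held 0.505% to 1.61% as many reads as *Timm23*, so the value rests on how reads were shared among them.

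*Timm50*, the receptor of the complex, was at 192, 173, 184 and 187 CPM in controls and 178, 188, 175, 191 and 178 CPM in mutants. The libraries interleaved, and the log2 fold change was -0.02 ± 0.09, the smallest standard error of the 33. *Timm21*, which couples the complex to the respiratory chain, gave -0.05 ± 0.14.

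The alternative channel subunits *Timm17a* and *Timm17b* leaned apart. *Timm17a* was at 139, 89.4, 101 and 129 CPM in controls and 104, 153, 160, 149 and 112 CPM in mutants (0.24 ± 0.17, adjusted p = 0.348). *Timm17b*, on the X chromosome, was at 115, 76.2, 92.9 and 105 CPM in controls and 69.6, 97.3, 78.8, 80.6 and 75.5 CPM in mutants (-0.27 ± 0.14, adjusted p = 0.195). Each gene alone overlapped between genotypes and did not pass in edgeR. In limma-voom *Timm17a* was 0.41 (adjusted p = 0.0386) and *Timm17b* -0.20 (adjusted p = 0.196). With 1 surrogate variable *Timm17a* was 0.00 (adjusted p = 0.996) and *Timm17b* -0.41 (adjusted p = 0.0233).

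The import motor pulls precursors into the matrix by cycles of the chaperone encoded by *Hspa9*. It includes nucleotide exchange factors of the GrpE family, J-domain partners and a docking subunit. Of its 6 genes, 1 rose (16.7%, beside 7.82% of all genes tested). *Grpel2* was at 63.4, 59.5, 53.8 and 71.7 CPM in controls and at 76.3, 110, 133, 129 and 98.8 CPM in mutants. Each mutant was above each control, mutant 74 by the least. Its log2 fold change of 0.82 ± 0.16 (adjusted p = 0.00641; 2-sided exact permutation p = 0.0159) was the largest of the 33, and it was called in 17 of 17 alternatives (0.59 to 0.99, adjusted p at most 0.0295). A copy, *Gm5587*, matches 677 bases of the *Grpel2* transcript at 97.8% identity.

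*Grpel1*, the other exchange factor and the more abundant, was at 188, 129, 150 and 176 CPM in controls and 155, 210, 203, 213 and 155 CPM in mutants. Its mutants 74 and 79 were within the control range, and 0.22 ± 0.15 did not pass in edgeR (adjusted p = 0.331). Limma-voom called *Grpel1* at 0.34 (adjusted p = 0.0477), and with 1 surrogate variable it was 0.03 (adjusted p = 0.859). *Timm44*, which docks the chaperone at the channel, was at 113, 103, 104 and 85.5 CPM in controls and 107, 87.8, 90.2, 77.1 and 100 CPM in mutants, with overlap throughout (-0.13 ± 0.12, adjusted p = 0.502). The J-domain proteins *Dnajc15* and *Dnajc19* gave 0.04 ± 0.16 and 0.09 ± 0.14, and their regulator *Pam16* gave 0.28 ± 0.16 (adjusted p = 0.257). Limma-voom called *Pam16* at 0.45 (adjusted p = 0.0296), and with 1 surrogate variable it was 0.15 (adjusted p = 0.502). Of the 6 motor genes, DESeq2 called 1 and limma-voom 3. *Pam16* and *Dnajc19* lie over genes on the other strand, *Glis2* over 8461 bases and *Fxr1* over 13323 bases, which had mean counts of 721.3 against 726.2 for *Pam16* and of 2060.3 against 1425.0 for *Dnajc19*, so their values are uncertain.

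The subunits of the processing peptidase leaned in opposite directions, *Pmpca* at -0.17 ± 0.10 (adjusted p = 0.292) and *Pmpcb*, which carries the catalytic site, at 0.26 ± 0.13 (adjusted p = 0.208). *Timmdc1*, a TIM-related protein that assembles complex I, gave 0.31 ± 0.18, and *Tomm34*, a cytosolic cochaperone of precursors, 0.18 ± 0.11. None of these 4 passed in edgeR, with 0 at an unadjusted p under 0.05; DESeq2 called 0, and limma-voom called *Pmpcb* and *Tomm34*.

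Ratios within a library do not depend on how libraries were scaled, so 9 pairs of paralogs or partner subunits with enough reads were compared as log2 ratios of their counts, with p-values of a 2-sided exact permutation test adjusted over the 9. The ratio of *Timm17a* to *Timm17b* was 0.27, 0.23, 0.13 and 0.30 in controls and 0.58, 0.66, 1.02, 0.88 and 0.56 in mutants. Every mutant exceeded every control, and mutants 74 and 79, low for each gene, were no exception. The difference was 0.51, from 0.23 ± 0.08 to 0.74 ± 0.20 (SD, n = 4 and 5; exact permutation p = 0.00794, adjusted 0.0357). The ratio of *Grpel1* to *Grpel2* was 1.57, 1.11, 1.48 and 1.30 in controls and 1.02, 0.94, 0.61, 0.72 and 0.65 in mutants. Again the genotypes did not overlap, and *Grpel2* gained on *Grpel1* by 0.58, from 1.36 ± 0.20 to 0.79 ± 0.18 (exact permutation p = 0.00794, adjusted 0.0357). With any 1 library left out, the differences stayed between 0.44 and 0.55 and between -0.66 and -0.51, while the adjusted p rose above 0.05 (at most 0.161), since the smallest p such a test allows is larger with 8 libraries.

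The other 7 pairs overlapped between genotypes. *Pmpca* to *Pmpcb* differed by -0.42 (exact permutation p = 0.0714, adjusted 0.161) and *Timm8a1* to *Timm8b* by 0.37 (exact permutation p = 0.0635, adjusted 0.161). *Timm10* to *Timm10b* differed by 0.44, with mutants 77 and 78 at 3.02 and 2.87 and the other 3 mutants between 1.88 and 2.40 (exact permutation p = 0.183). Differences of *Timm9* to *Timm10* (-0.18), *Mtx1* to *Mtx3* (-0.25), *Dnajc15* to *Dnajc19* (-0.05) and *Tomm40* to *Tomm40l* (-0.02) did not pass (exact permutation p from 0.143 to 0.929). The *Timm9* to *Timm10* ratio was -0.38 ± 0.08 in controls and -0.57 ± 0.19 in mutants, and that of *Mtx1* to *Mtx3* 3.56 ± 0.20 and 3.31 ± 0.26.

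**Figure D3:**
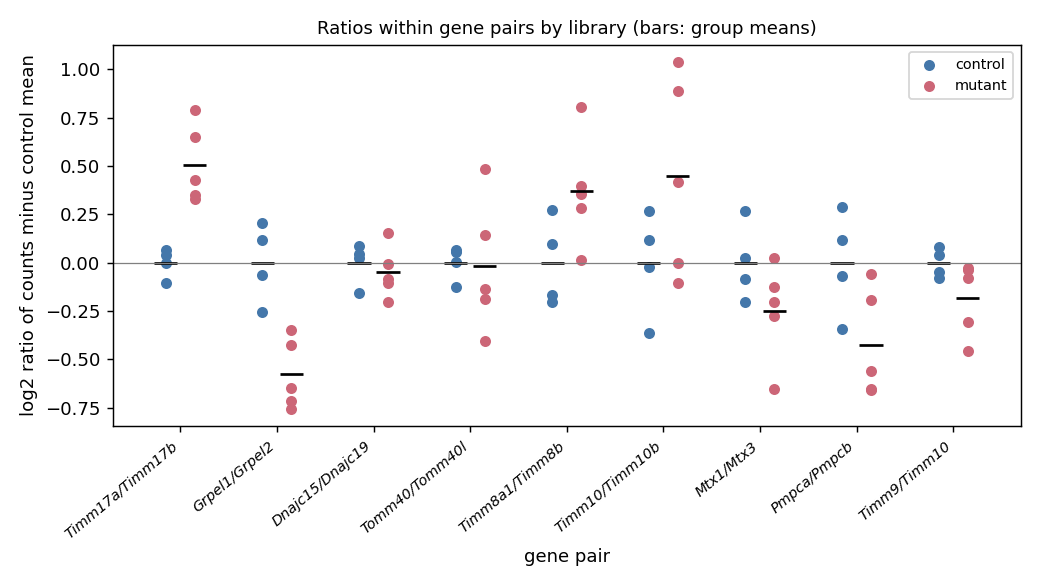
Log2 ratio of the counts of each gene pair in each library, minus the control mean of that pair (blue, 4 controls; red, 5 mutants; bars, group means). Only the pairs Timm17a/Timm17b, with its mutant mean 0.51 above the controls, and Grpel1/Grpel2, 0.58 below, have mutants clear of all controls.

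A list of 18 further import factors outside the symbol pattern was read from the same fit, and 2 (11.1%, beside 14.8% of all genes) passed, 1 in each direction. The count was 1 without a filter, 4 without mutant 74 and 1 with any other library left out. Genotypes did not overlap in 4 of the 18 (22.2%), beside 15.2% of all genes. *Hspa9*, the motor chaperone that *Grpel1* and *Grpel2* serve, was at 355, 454, 431 and 359 CPM in controls and 645, 540, 573, 520 and 608 CPM in mutants. The genotypes did not overlap, and mutants 74 and 79 were the highest, unlike in most import genes. *Hspa9* rose by 0.53 ± 0.12 (adjusted p = 0.0114). *Bcs1l*, the AAA protein that inserts the Rieske protein into complex III, was at 27.1, 22.5, 22.1 and 27.7 CPM in controls and 17.9, 17.8, 16.5, 19.3 and 18.8 CPM in mutants, a log2 fold change of -0.46 ± 0.14 (adjusted p = 0.0385), with no overlap. *Dnlz*, the escort of the motor chaperone (-0.38 ± 0.14, adjusted p = 0.075), and *Aifm1*, which tethers the disulfide relay protein *Chchd4* (-0.23 ± 0.10, adjusted p = 0.128), did not overlap between genotypes but missed the threshold. The relay itself, *Chchd4* (0.27 ± 0.15) and *Gfer* (0.06 ± 0.14), the carrier insertase subunit *Agk* (0.13 ± 0.11) and the inner membrane insertase *Oxa1l* (0.13 ± 0.11) did not pass.

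**Figure D4:**
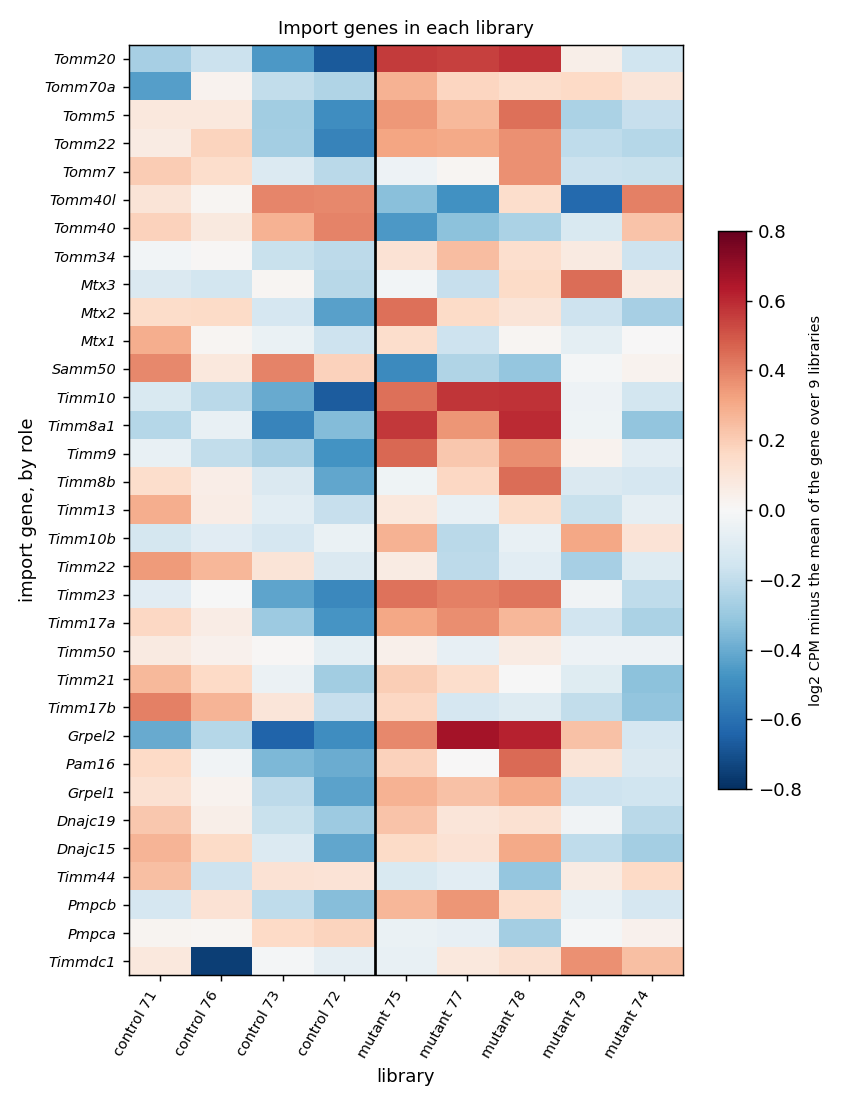
Log2 CPM of the 33 import genes tested, by role, in each library, minus the mean of the gene over the 9 libraries (red above, blue below). Control 72 is the bluest column with a mean of -0.25 over the genes and mutant 78 the reddest with 0.18, and mutants 79 and 74 resemble the controls in many rows.

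Across the import genes the mean centred log2 CPM was 0.07, -0.25, -0.12 and 0.00 in controls 71, 72, 73 and 76 and -0.09, 0.15, 0.10, 0.18 and -0.04 in mutants 74, 75, 77, 78 and 79. Controls 71 and 76 were thus above mutants 74 and 79. Control 72 was the lowest control in 23 of the 33 genes and mutant 74 the lowest mutant in 19. The TMM scaling factors moved with this order, at 1.085 and 1.053 in controls 72 and 73 and 1.033 and 1.014 in mutants 74 and 79, against 0.9327 to 0.9424 in mutants 75, 77 and 78. The part of composition in the differences was not tested. In bulk RNA, fewer cells of a type and less RNA per cell cannot be told apart.

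Markers of other cells moved with genotype beside these genes. The 5 stromal markers summed to 72.2 to 117 CPM in controls and 183 to 574 CPM in mutants, and 5 of 5 rose. The 4 myeloid markers were at 0.128 to 6.75 CPM and 4.3 to 76.4 CPM, with 0 called in edgeR (4 with an unadjusted p under 0.05; DESeq2 called 3 and limma-voom 4). Committed nephron markers were at 308 to 555 CPM and 222 to 339 CPM, with 2 of 6 lower in edgeR, *Wnt4* and *Lhx1* (5 with an unadjusted p under 0.05; DESeq2 called 3 and limma-voom 5). The 5 ureteric bud markers, *Ret*, *Wnt9b*, *Wnt11*, *Hoxb7* and *Gata3*, summed to 44.8 to 62.5 CPM in controls and 27.3 to 48.7 CPM in mutants. Only 2 of the 5 had enough reads to be tested, with 0 called in edgeR (2 with an unadjusted p under 0.05, and 2 called by DESeq2 and by limma-voom). The paper reports that it could not detect *Ret* and *Wnt9b* transcripts in the sorted cells of either genotype. Podocyte, proximal tubule, endothelial and erythroid markers were at no more than 10.6 CPM in any library, with 1 called (*Pecam1*, higher) and *Hbb-bt* at 3 reads or fewer. Their part in the changes of the import genes was not tested.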

How the data were processed

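RNA-seq of sorted eGFP+ cells was available for 4 control and 5 mutant libraries (single columns, not pooled), grouped by their labels. Per the labels, cDNA was amplified from low-input RNA with poly(A) selection and no strand information. The submitters' processing notes name STAR, DESeq2 and mm10, with versions and counting tool not given in the sources used here. The authors deposited raw counts per gene, which were used; the deposited FPKM values, the genotype means of normalized signal, and the log2 fold changes and p-values of the authors' comparison were not. Gene lengths from the table gave RPKM.

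Counts were tested in R 4.3.3 with edgeR 4.0.16 (filterByExpr, TMM, robust quasi-likelihood test), mutant against control, with Benjamini-Hochberg adjustment over 14990 genes and a threshold of 0.05. SE is the log2 fold change over the square root of F. For single genes and pair ratios (0.5 added to each count), a 2-sided exact permutation test ran over all 126 ways to divide 9 libraries into 4 and 5, with 0.00794 as its smallest p. The scripts were tested on simulated data. Alternatives used DESeq2 1.42.0, limma 3.58.1 (voom), sva 3.50.0, other scalings and filters, each library left out, and Y-linked expression (*Ddx3y*, *Eif2s3y*, *Kdm5d*, *Uty*) as a covariate, chosen after seeing the data. Copies were found with blastn 2.17.0 (at least 95% identity over 200 bases). Identifiers in the table matched GENCODE M21 for 32 of 36 genes, so genes were taken by symbol and position.

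Members and lists were chosen with earlier results of these data known. Values in every library are given for genes past the threshold, 9 core genes (*Tomm20*, *Tomm22*, *Tomm40*, *Tomm70a*, *Samm50*, *Timm23*, *Timm22*, *Timm44*, *Timm50*) and pairs without overlap. Protein sequences were not analysed here. Tested genes had 90 reads or more in every library, and the SD between libraries is given as the error.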

Additional observations from a re-analysis of the deposited data

How the results depend on the processing

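No paired analysis was possible because the control and mutant libraries share no replicate number. The main analysis called 5 of 33 import genes (4 higher, 1 lower), beside 2225 of all 14990 genes tested. DESeq2 called 8 of the 33 (7 higher), beside 3100 of the 14990 (3213 in its own fit). Limma-voom with quality weights called 16 of the 33 (14 higher, 2 lower), beside 4868 of the 14990. A model with 1 surrogate variable called 8 of the 33 (3 lower), beside 2474 of the 14990, with an import median of 0.00. Of the other import factors, 2 by the main analysis, limma-voom called 10 and edgeR without a filter 1. With 1 library left out, the import count ranged from 1 to 9 (1 to 7 higher, 0 to 2 lower), the count over all genes from 1046 to 3136 and that of the other factors from 1 to 4. The lowest counts came without control 73 and the highest without mutant 74. The cause was not tested. With RLE, upper-quartile scaling, at least 10 counts in every library, no filter or the Y-linked covariate, 4 or 5 import genes were called.

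Signs changed only in genes and pairs that did not pass in the main analysis. Of these genes, limma-voom called *Tomm22* (0.42, adjusted p = 0.0436) and *Timm17a* (0.41, adjusted p = 0.0386). Signs changed in *Tomm7* (0.01 with RLE and DESeq2, 0.13 in limma-voom), and in limma-voom in *Timm13* (0.05), *Timm21* (0.05) and *Mtx1* (0.00). With the surrogate variable they changed in *Dnajc15* (-0.17), *Mtx2* (-0.09), *Dnajc19* (-0.05), *Tomm22* (0.00) and *Timm17a* (0.00), and with the Y-linked covariate in *Dnajc15* (-0.06). With 1 library left out they changed in *Timm50* (-0.05 to 0.00), *Timm13* (-0.11 to 0.06), *Timm21* (-0.14 to 0.04), *Tomm7* (-0.11 to 0.06), *Mtx1* (-0.11 to 0.05), *Dnajc15* (-0.08 to 0.14) and the ratio of *Tomm40* to *Tomm40l* (-0.15 to 0.08). Adding 2 counts in place of 0.5 changed no call of a pair.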

Other observations

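Timm29, a subunit of the TIM22 complex, is listed in the table under its older symbol *1810026J23Rik* and so was not among the 36 genes. It was read at 68.4, 102, 90.6 and 76.3 CPM in controls 71, 72, 73 and 76 and at 102, 76.8, 84.1, 71.5 and 78.2 CPM in mutants 74, 75, 77, 78 and 79. The genotypes overlapped, and the log2 fold change was -0.03 ± 0.14 (adjusted p = 0.912). Rows for *Tomm6os*, an antisense transcript of *Tomm6*, and for the pseudogene *Dnajc19-ps* match the symbol pattern but are not protein coding. *Tomm6os* had 13, 14, 24 and 19 reads in the controls and 10, 27, 42, 28 and 28 in the mutants, and *Dnajc19-ps* 1 to 8 reads in each library.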
